A study of Mus musculus with 5 samples.

Results

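The genes described here are 6 genes of ATP-binding cassette (ABC) efflux transporters, Abcb1a, Abcb1b, Abcc1, Abcg1, Abcg2 and Abca1, together with Nr1i3, which encodes the nuclear receptor CAR (constitutive androstane receptor). They were selected by gene symbol with the difference between conditional and control arrays already known, and each is read by the probe set that the platform annotation gives to that symbol alone. All 7 were measured, among 19937 genes in all, and each had 1 such probe set. Because the same difference guided the choice, their values are given as a description and carry no test.

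Colonic lamina propria of mice was the tissue, and the sort kept CD45+CD3+CD4+CD44low cells, CD4 T cells that carry little of the activation marker CD44. Their RNA was hybridised to 5 Affymetrix whole-transcript arrays. The 3 conditional arrays are from CD4cre/Cnb1flox mice, in which Cre driven by CD4 acts on floxed Cnb1 (symbol Ppp3r1), a gene encoding calcineurin B, the regulatory part of that phosphatase. The 2 control arrays are from CD4neg/Cnb1flox mice, which carry the same floxed gene without Cre and which the titles call WT. Both groups are therefore floxed, no treatment is listed and ages are not given in the labels. The study's design gives 3 experiments with 3 to 5 mice a group without tying mice to arrays, so whether an array held RNA of 1 mouse or of several is not known. Differences are judged against the spread between these arrays, which may be technical.

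ABC exporters are membrane proteins that use ATP to move drugs, lipids, bile acids and metabolic conjugates out of cells. P-glycoprotein, the multidrug resistance pump, is encoded by a single gene in humans and by the neighbouring paralogs Abcb1a and Abcb1b in mice, and mice without Abcb1a are known to develop colitis. In the small intestine, effector CD4 T cells are known to depend on this pump for protection from bile acids, and CAR is known to drive its gene there. Abcc1 exports glutathione conjugates and leukotriene C4, Abcg2 exports a wide range of xenobiotics, and Abca1 and Abcg1 export cholesterol and phospholipid under control of the liver X receptors (LXR).

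Promoter sequences are shown for the Abcb1 paralogs, because their 2 genes differed most between the groups, and for Abca1, whose promoter is known for its LXR element. They are from RefSeq on GRCm38.p6, where 5 of the 7 genes had a window of 250 bases before to 50 bases after an annotated start. The Abcb1a stretch is chr5:8566841-8567094 on the plus strand, the Abcb1b stretch is chr5:8797897-8798146 on the plus strand, and the Abca1 stretch is chr4:53159896-53160145 on the minus strand. Capitals in the Abcb1 stretches mark CCAAT boxes on either strand, GC boxes, and the longest run of bases that both windows share. In Abca1 they mark the best match to an AGGTCA direct repeat with 4 bases between the copies.
Abcb1a: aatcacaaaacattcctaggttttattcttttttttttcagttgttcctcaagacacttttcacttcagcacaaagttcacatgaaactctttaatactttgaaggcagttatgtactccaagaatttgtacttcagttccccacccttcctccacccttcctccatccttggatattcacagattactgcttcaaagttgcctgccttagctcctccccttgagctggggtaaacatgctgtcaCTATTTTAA
Abcb1b: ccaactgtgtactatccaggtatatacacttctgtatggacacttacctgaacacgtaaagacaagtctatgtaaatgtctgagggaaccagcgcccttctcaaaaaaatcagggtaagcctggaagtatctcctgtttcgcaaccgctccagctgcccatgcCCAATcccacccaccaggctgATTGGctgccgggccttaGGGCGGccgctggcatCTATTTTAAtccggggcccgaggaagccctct
Abca1: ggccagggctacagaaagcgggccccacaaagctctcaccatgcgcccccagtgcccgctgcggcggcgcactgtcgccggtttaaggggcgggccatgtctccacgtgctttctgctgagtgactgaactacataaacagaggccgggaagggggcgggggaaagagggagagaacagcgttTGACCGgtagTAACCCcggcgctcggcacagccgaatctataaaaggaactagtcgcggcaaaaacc

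The Abcb1 windows had little sequence in common. The longest shared run was CTATTTTAA, 9 bases long, at positions -32 to -24 from the annotated start in Abcb1b and at -5 to 4 in Abcb1a, where the start is position 1. It was singled out from these windows, and 0.28% of 32851 windows held it on either strand. A CCAAT box lay at -87 to -83 in Abcb1b and a second, on the opposite strand, at -66 to -62, followed by a GC box (GGGCGG) at -48 to -43. Neither motif occurred in the Abcb1a window, while 37.4% of all windows held CCAAT and 35.7% held GGGCGG. Over the 250 bases before the start, GC content was 40.4% in Abcb1a, 52.8% in Abcb1b and 61.6% in Abca1, against a median of 52.4% over all windows.

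Exact motifs of the receptors and factors linked to these genes were mostly not found in these windows. An AGGTCA repeat with 4 bases between copies, which heterodimers of CAR or LXR with RXR can bind, was in none of the members' windows exactly or with 1 mismatch, and 0.25% of all windows held it with at most 1. The nearest match in Abca1 had 3 mismatches of 12, at -67 to -52 on the minus strand, and 21.9% of windows came as close. Whether this stretch is the LXR element for which the Abca1 promoter is known was not tested. In Abcb1a and Abcb1b the nearest match had 4 mismatches, reached by 76.9% of windows. The AGGTCA unit itself, held by 16.3% of windows, occurred 3 times over the 3 Abcg2 windows and in none of the other members' windows. The NFAT core GGAAAA, present in 23.4% of windows, was absent from both Abcb1 windows and from those of Abca1 and Nr1i3, and occurred in 1 of the 3 Abcg2 windows. The AP-1 motif TGANTCA, held by 7.81% of windows, occurred in Nr1i3 alone among the 5 genes, and the antioxidant response motif TGACNNNGC, held by 12.4%, in Abcb1a alone, at 27 to 35. The E-box CACGTG, held by 7.15%, occurred in Abca1 and Nr1i3. Motifs were searched on both strands, and a missing match says only that these letters are not in the window.

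The control arrays differed from each other before any comparison with conditional cells. Over 13 T cell markers such as Cd3e and Cd4, the mean log2 level was 10.79 to 11.09 on the conditional arrays, 11.30 on control 2 and 8.504 on control 1, and all 13 markers were lowest on control 1. Cd4 itself stood at 9.26 on control 1 and 11.83 on control 2. Epithelial markers ran the other way, with a mean of 9.50 on control 1, 8.27 on control 2 and 7.30 to 7.72 on the conditional arrays, and 12 of 16 were highest on control 1. Stromal and endothelial markers averaged 10.60 on control 1, 8.95 on control 2 and 8.34 to 9.38 on the conditional arrays. In RNA from a mixed sample, fewer cells of a type and less RNA per cell cannot be told apart. For this reason each member is set against both controls together and against each alone, where the difference from control 2 alone is also the value without control 1. Ppp3r1 differed by -0.05 ± 0.159 (SE; limma, adjusted p = 0.927), at -0.25 against control 1, 0.15 against control 2 and 0.04 with median centring. Whether its probe set reads the deleted part was not tested, nor was the extent of the deletion in these cells.

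The Abcb1 genes were the members with the largest differences. Abcb1a (probe set 10519527) stood at a log2 level of 11.73, 11.73 and 11.76 on conditional arrays 1, 2 and 3, and at 9.76 and 9.91 on control arrays 1 and 2. Every conditional value lay above both controls, and the 3 conditional values were within 0.03 of each other. The group means were 11.74 ± 0.0178 (SD, n = 3) and 9.83 ± 0.107 (SD, n = 2), a difference of 1.91 ± 0.106 (SE) or 3.75-fold. Against control 1 alone Abcb1a was 3.95-fold higher and against control 2 alone 3.56-fold higher, so the array with few T cell transcripts and the array with many gave similar values.

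Abcb1b (probe set 10519555) stood at 9.63, 10.19 and 10.30 on the conditional arrays and at 7.31 and 7.30 on the controls. Its groups did not overlap either, but it varied more among conditional arrays than its paralog did, with a span of 0.67. Conditional array 1 was the lowest of them, while the 2 controls differed by 0.02. The difference of the means, 10.04 ± 0.361 (SD, n = 3) against 7.30 ± 0.0125 (SD, n = 2), was 2.74 ± 0.228 (SE) or 6.67-fold. It was 6.63-fold against control 1 alone and 6.71-fold against control 2 alone. Ranked from the highest difference down over all 19937 genes, Abcb1b came 26th and Abcb1a 89th. The Abcb1a and Abcb1b proteins are close paralogs, and how far their probe sets share signal was not tested.

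Abcc1 (probe set 10433735), the exporter of glutathione conjugates, was the third pump with higher values in conditional cells. It stood at 10.43, 10.45 and 10.51 on the conditional arrays and at 9.71 and 9.46 on the controls. The groups did not overlap, and the conditional values spanned 0.08. The difference was 0.88 ± 0.122 (SE), from 9.58 ± 0.176 (SD, n = 2) to 10.46 ± 0.0436 (SD, n = 3), or 1.84-fold. Against control 1 alone it was 1.69-fold and against control 2 alone 2.004-fold. Abcc1 came 537th among all genes by its difference.

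**Figure D1:**
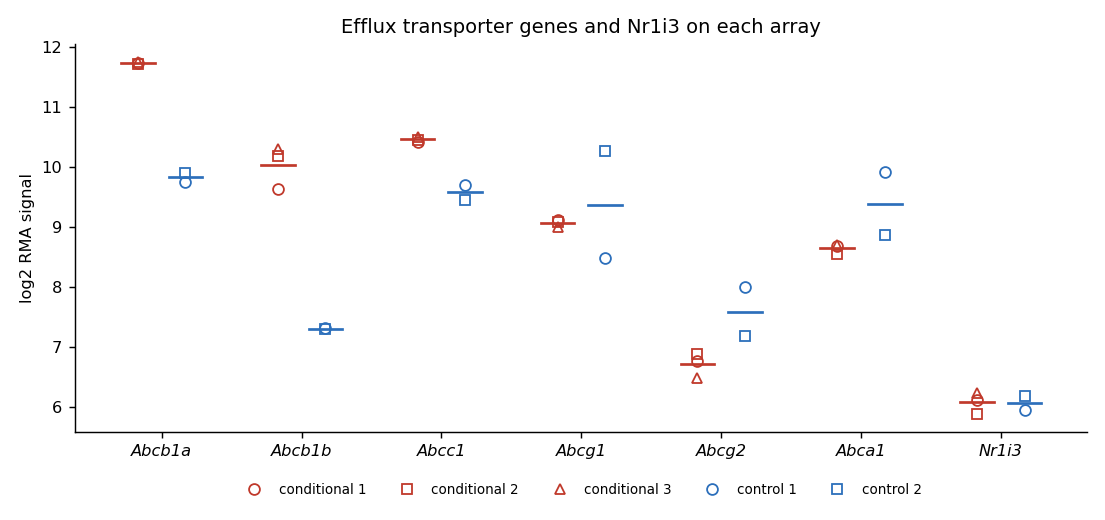
Log2 RMA signal of each gene on each array, with conditional arrays in red and control arrays in blue; symbols give the replicate and horizontal bars the group means. Abcb1a, Abcb1b and Abcc1 lie above both controls on all 3 conditional arrays, Abcg2 and Abca1 lie below both, and the Abcg1 controls fall at 8.49 and 10.26 on either side of the conditional values.

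Abcg2, the breast cancer resistance protein gene, was lower in conditional cells by an amount that hung on the control array. Abcg2 (probe set 10538640) stood at 6.78, 6.89 and 6.49 on the conditional arrays and at 7.995 and 7.18 on the controls. All conditional values lay below both controls, though control 2 was nearer to them than to control 1. The difference was -0.87 ± 0.279 (SE), from 7.59 ± 0.577 (SD, n = 2) to 6.72 ± 0.207 (SD, n = 3). It amounted to 2.42-fold lower against control 1 alone and 1.38-fold lower against control 2 alone.

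Abca1 (probe set 10512949), the gene for the cholesterol exporter that loads apolipoprotein A-I, followed the same pattern. It stood at 8.68, 8.55 and 8.70 on the conditional arrays and at 9.91 and 8.87 on the controls. Conditional values were below both controls, but control 2 was within 0.22 of their mean. The difference was -0.74 ± 0.317 (SE), between 9.39 ± 0.739 (SD, n = 2) and 8.65 ± 0.0821 (SD, n = 3). Against control 1 alone Abca1 was 2.40-fold lower and against control 2 alone 1.17-fold lower. Abcg2 and Abca1 were the most alike pair of members, with a root mean square gap of 0.20 between profiles centred on their mean over the 5 arrays. Both were highest on control 1, where epithelial and stromal markers were also highest, and the part of those cells in the difference was not tested.

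Abcg1 (probe set 10443730), which passes cholesterol to high-density lipoprotein, had no direction that held against both controls. It stood at 9.11, 9.08 and 8.999 on the conditional arrays, at 8.49 on control 1 and at 10.26 on control 2. The conditional values thus lay between the controls, 1.49-fold above control 1 and 2.29-fold below control 2. The difference from both was -0.31 ± 0.516 (SE), with control values of 9.38 ± 1.25 (SD, n = 2) and conditional values of 9.06 ± 0.0581 (SD, n = 3). Like the T cell marker mean, Abcg1 was lowest on control 1 and highest on control 2. Over conditional arrays 1, 2 and 3, Abcg1 fell while the T cell marker mean rose (10.79, 10.91 and 11.09). The part of T cell content was not tested.

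Nr1i3 (probe set 10351533), the gene of the receptor CAR, had nearly equal group means. It stood at 6.12, 5.88 and 6.24 on the conditional arrays and at 5.96 and 6.19 on the controls, and the groups overlapped. The difference was 0.01 ± 0.156 (SE), with a 95% confidence interval from -0.39 to 0.41, which leaves room for changes of that size in either direction. Its mean level lay at the 24.2 percentile of all genes. Probe sets differ in affinity and no detection call was available, so whether the receptor was expressed is not known.

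Counted together, 3 of the 7 members had all conditional values above both controls and 2 had all below. Over all 19937 genes, groups did not overlap for 30.5% (17.4% higher and 13.1% lower). The members were selected on this contrast, so nothing is read from their share. The gap between the controls comes from the same values and is given as a description too. It was 0.02 for Abcb1b, 0.15 for Abcb1a, 0.23 for Nr1i3 and 0.25 for Abcc1, against a median of 0.28 over all genes, and it was 0.82 for Abcg2, 1.04 for Abca1 and 1.77 for Abcg1. Among all genes, 3.27% had a smaller control gap than Abcb1b, 28.7% than Abcb1a, 42.7% than Nr1i3 and 46.0% than Abcc1, but 83.1% than Abcg2, 87.5% than Abca1 and 94.9% than Abcg1. Adding the T cell marker mean as a covariate, an alternative chosen after the controls were seen to differ, gave 1.85 for Abcb1a, 2.72 for Abcb1b and 0.97 for Abcc1, and -0.56 for Abcg2, -0.36 for Abca1 and -0.95 for Abcg1.

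**Figure D2:**
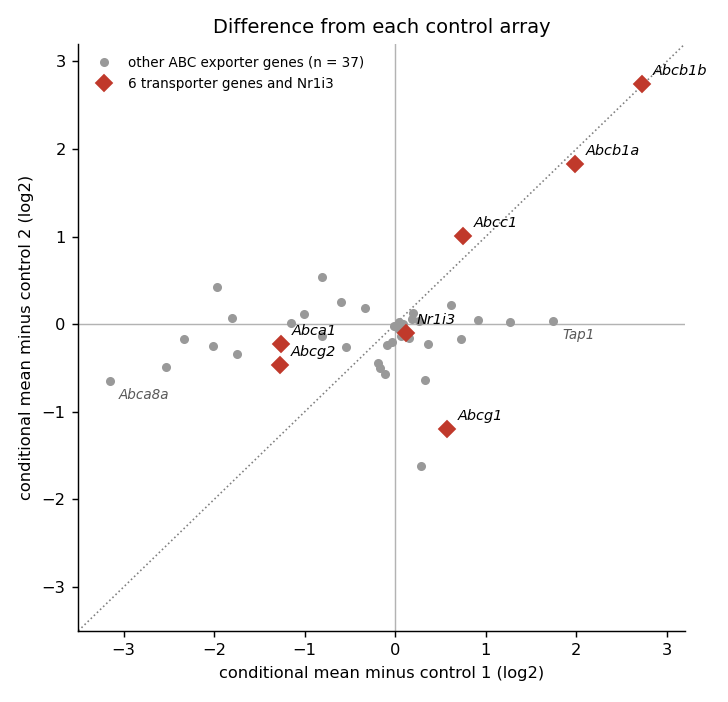
Conditional mean minus control 1 (x axis) and minus control 2 (y axis), both on the log2 scale, for the 7 members (red diamonds) and 37 other ABC exporter genes (grey); the dotted line marks equal values. Abcb1b, Abcb1a and Abcc1 sit near the line at 2.73 and 2.75, 1.98 and 1.83, and 0.75 and 1.003, whereas Abca8a (-3.15 and -0.64) and Tap1 (1.75 and 0.03) differ from 1 control far more than from the other.

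Macrophage and dendritic cell markers lay above the controls on the conditional arrays too. Their mean over 15 genes was 7.29, 7.34 and 8.08 on the conditional arrays and 6.59 and 6.71 on the controls, and 8 of the 15 had all conditional values above both controls, beside 17.4% of all genes. Cd14, a monocyte receptor gene, differed by 2.41 (limma, adjusted p = 0.171), by 1.69 from control 1 and 3.13 from control 2. Csf1r, the receptor for macrophage growth factor, differed by 1.15 (limma, adjusted p = 0.285). Over conditional arrays 1, 2 and 3, Abcb1b (9.63, 10.19 and 10.30) and Abcc1 (10.43, 10.45 and 10.51) ran in the same order as the mean of these markers, and Abcb1a (11.73, 11.73 and 11.76) was also highest on array 3. The T cell marker mean rose in that order too (10.79, 10.91 and 11.09). Abcb1b rose most from array 1 to 2, and the macrophage and dendritic cell mean from array 2 to 3. The part of myeloid cells in the members' values was not tested. Granulocyte, mast cell and natural killer markers averaged 6.17 to 6.29 on the conditional arrays and 5.66 and 5.95 on the controls. Of these 16, 7 were above both controls and 1 below both, beside 17.4% and 13.1% of all genes. B and plasma cell markers averaged 8.51 to 9.22 on the conditional arrays and 9.66 and 9.24 on the controls. Below both controls were 3 of these 8 and 6 of 14 stromal and endothelial markers, beside the same 13.1%.

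**Figure D3:**
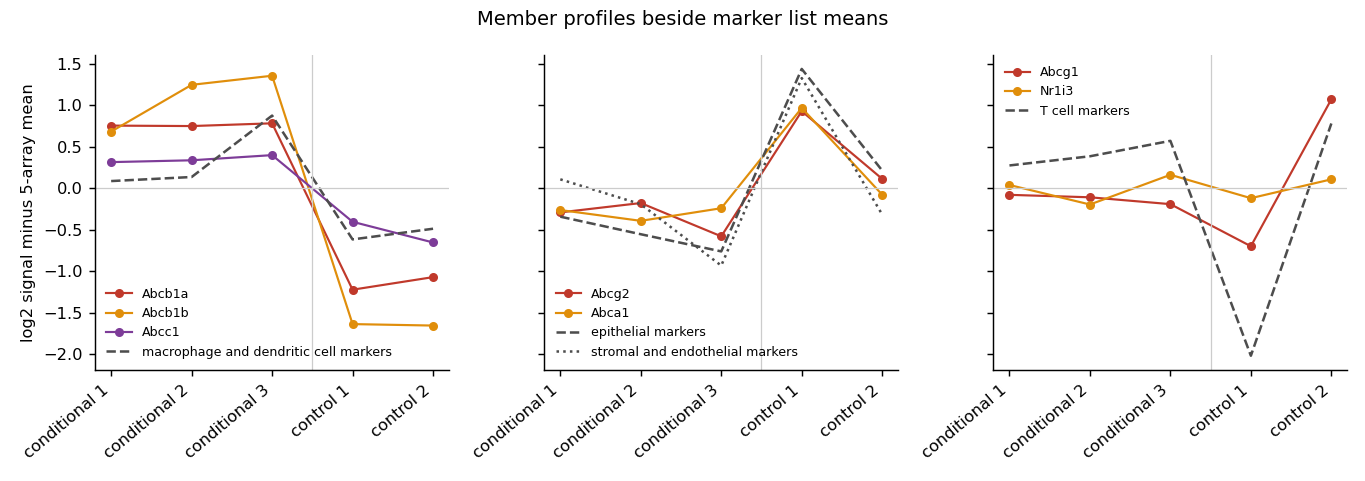
Log2 signal of each member minus its mean over the 5 arrays (coloured lines), beside the mean of marker lists treated the same way (dashed and dotted lines). Abcb1a, Abcb1b and Abcc1 are low on both controls, Abcg2 and Abca1 peak on control 1 together with epithelial and stromal markers, and Abcg1 peaks on control 2 and is lowest on control 1, as the T cell markers are.

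Genes around the Abcb1 paralogs were examined because Abcb1a and Abcb1b lie beside each other on chromosome 5. The 3 measured protein-coding genes on each side were taken from the order in the RefSeq table, after the values of the paralogs were known. Rundc3b, whose annotated span overlaps that of Abcb1a on the opposite strand, stood at 10.05, 10.31 and 10.42 on the conditional arrays and at 7.96 and 8.66 on the controls. Its groups did not overlap and its difference was 1.95 ± 0.247 (SE), close in size to that of Abcb1a, but it did not pass the test over all genes (limma, adjusted p = 0.0658). The difference of Rundc3b was 2.30 against control 1 alone and 1.60 against control 2 alone. Whether probes of Rundc3b and Abcb1a read the same RNA was not tested.

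The gene on the other side is Abcb4, the third member of the cluster, which exports phosphatidylcholine into bile. Abcb4 stood at 6.47, 6.27 and 6.61 on the conditional arrays and at 5.83 and 6.23 on the controls. The conditional values were above both controls by a small margin, with a difference of 0.42 ± 0.178 (SE; limma, adjusted p = 0.378). Beyond it, Crot, a peroxisomal carnitine transferase gene, differed by 0.70 (limma, adjusted p = 0.203) and Tmem243 by 0.64 (limma, adjusted p = 0.348), both with groups apart. On the far side of Rundc3b, Slc25a40 differed by 0.25 (limma, adjusted p = 0.558) and Dbf4, a gene of DNA replication, by 0.63 (limma, adjusted p = 0.499), and their groups overlapped. None of the 6 flanking genes passed the test with both controls, where 0.416% of all genes did (0.371% higher and 0.0451% lower).

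**Figure D4:**
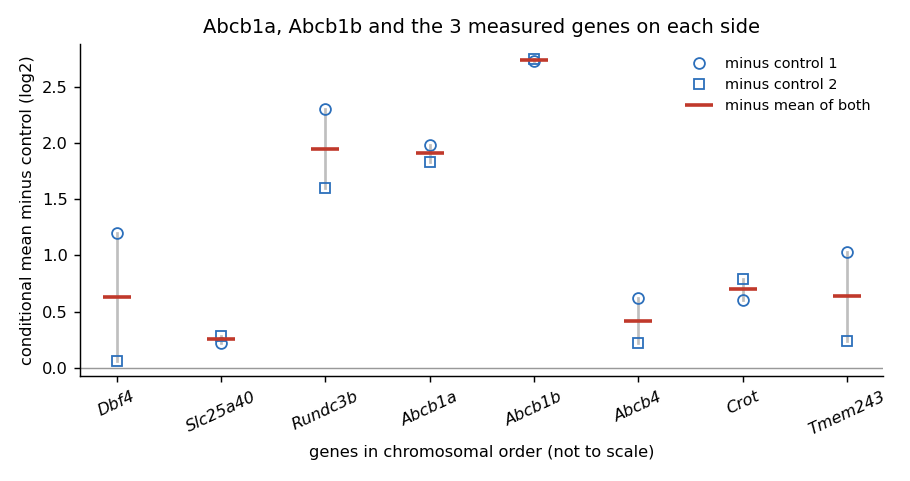
Conditional mean minus control on the log2 scale for Abcb1a, Abcb1b and the 3 measured protein-coding genes on each side, in chromosomal order and not to scale; circles use control 1, squares control 2 and red bars the mean of both. Rundc3b (1.95), Abcb1a (1.91) and Abcb1b (2.74) stand above the outer genes, which lie between 0.25 and 0.70.

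No other measured ABC exporter had a difference as high as that of Abcb1a, which ranked 89th of 19937 genes. The members were set apart with their differences known, so this was partly fixed by the choice. Of 39 other exporters listed, 37 were measured, and 0 passed the limma test over all genes, beside 0.416% of all genes. At an unadjusted p under 0.05 the list held 1 gene, which was lower, beside 14.5% of all genes (8.59% higher and 5.91% lower). Their median difference was -0.14, against 0.03 for all genes, and the median was -0.03 against control 1 and -0.05 against control 2. Groups were apart for 2 genes with higher and 9 with lower values, beside 17.4% and 13.1% of all genes. By direction the list held fewer higher and more lower genes than those shares. The member transporters, chosen with this difference known, are left out of the list, so nothing is read from these shares. Both directions pooled made 29.7% of the list, beside 30.5% of all genes. The 2 higher were Abcb4 and Abcb5, the latter by 0.17. Among the relatives of Abcc1, Abcc2, a canalicular exporter of conjugates, was at -0.01 (0.15 against control 1, -0.16 against control 2 and 0.09 with median centring), Abcc3 at -0.32, Abcc5, a nucleotide exporter, at -0.47, and Abcc4 at -0.07 (-0.33 against control 1, 0.19 against control 2 and 0.02 with median centring), with adjusted p between 0.416 and 0.993 in limma.

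Several peptide and lipid transporters of the family differed from 1 control far more than from the other. Tap1 and Tap2, which load peptides for class I antigen presentation, were at 0.89 and 0.28, but only 0.03 and -0.17 against control 2. Abca7, a lipid exporter of lymphoid and myeloid cells, was at 0.65, and at 0.02 against control 2. Abca8a and Abca9, named after their values were seen, had the lowest differences of the list, -1.90 and -1.51, and these shrank to -0.64 and -0.49 against control 2 (limma, adjusted p = 0.383 and 0.382 with both controls). Abca2 was at -0.16 (0.33 against control 1 and -0.64 against control 2). Abcg4, a cholesterol exporter related to Abcg1, was at -0.40, and the sterol exporter genes Abcg5 and Abcg8, LXR targets of gut and liver, were at -0.34 and -0.12. The bile salt pump gene Abcb11 was at 0.15, the mitochondrial transporter gene Abcb10 at -0.17 (0.25 against control 2), and the chloride channel gene Cftr at -0.57 (0.02 against control 2). None of these passed the limma test, with adjusted p from 0.326 to 0.884. Without control 2 the list held 18 genes past the threshold, 5 higher and 13 lower, where 27.5% of all genes passed. Without control 1, where 6.1% of all genes passed, it held 1, Abcg3, which was lower and is named after its value was seen.

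Receptors that sense bile acids, xenobiotics and oxysterols were then examined beside CAR. Of 15 listed, 14 were measured and 0 passed the limma test (3 at an unadjusted p under 0.05, all lower, beside 5.91% of all genes), with a median of -0.21. Vdr, the vitamin D receptor, which also senses lithocholic acid, stood at 7.77, 8.01 and 7.46 on the conditional arrays and at 9.38 and 8.59 on the controls. All conditional values were lower, by 1.23 (limma, adjusted p = 0.169), and Vdr was 1.63 below control 1 and 0.84 below control 2. Nr1i2, the gene of the pregnane X receptor (PXR), differed by -0.43 and by similar amounts from both controls, -0.46 and -0.41 (limma, adjusted p = 0.185). Hnf4a, a regulator of gut epithelium named after its values were seen, differed by -1.38 (limma, adjusted p = 0.150), at -1.86 against control 1 and -0.89 against control 2. Nr1h4, the bile acid receptor FXR, was at -0.77, Rxra, the dimer partner of these receptors, at -0.64 (-0.03 against control 2), and Nr1h3, which encodes LXR alpha, at -0.25. Ahr, the aryl hydrocarbon receptor, was at 0.20 with groups apart, and Gpbar1, the membrane receptor for bile acids, at 0.22. Adjusted p of these 5 lay between 0.415 and 0.619 in limma.

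No measured target gene of CAR and PXR was higher by as much as Abcb1a, a size that few genes reached (Abcb1a ranked 89th of 19937). Of 18 listed, 13 were measured and 0 passed the limma test (4 at an unadjusted p under 0.05, all lower, beside 5.91% of all genes), with a median of -0.07. Cyp2b10, the classical CAR target of mouse liver, was at 0.05 with overlapping groups (0.22 against control 1 and -0.12 against control 2; limma, adjusted p = 0.931). Cyp3a11, the classical PXR target, was at 0.09 (limma, adjusted p = 0.740), with levels of only 4.03 to 4.16. Of the 13 genes, 4 had a mean level above the median of all genes. No detection call was available, so whether these targets were expressed is not known. Groups were apart and higher in 2 of the 13 genes, Cyp3a11 among them, and lower in 5, beside 17.4% and 13.1% of all genes. Among the lower were Cyp2c55 (-2.09), Sult1d1 (-0.998) and Cyp3a13 (-0.52), which were named after their values were seen (limma, adjusted p = 0.150, 0.0834 and 0.116). Cyp2c55 was at -1.36 against control 1 and -2.82 against control 2, and Sult1d1 at -1.12 and -0.88. Epithelial markers were lower with groups apart in 8 of 16 cases, beside the same 13.1%, with Krt20, at -1.67, past the test (limma, adjusted p = 0.0327), and the part of epithelial cells in these values was not tested. Krt20 did not pass without any 1 of the conditional arrays (limma, adjusted p from 0.171 to 0.267), or with array weights or the replicate block (0.108 and 0.0683).

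LXR targets were read because Abca1 and Abcg1 belong to them. All 12 listed genes were measured and 0 passed the limma test (4 at an unadjusted p under 0.05, all lower, beside 5.91% of all genes), with a median of -0.29. Mylip, which degrades the LDL receptor, differed by -0.59, by -0.66 from control 1 and -0.52 from control 2 (limma, adjusted p = 0.144). Srebf1, the lipogenic regulator, was at 0.21 with groups apart and Apoe at -0.65 with overlapping groups, both at an adjusted p of 0.442 in limma. Scd2, a fatty acid desaturase gene named after its values were seen, had the largest difference, -2.14 (limma, adjusted p = 0.119). Abcg5, Abcg8 and Nr1h3 are counted in this list and in another above.

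Genes that supply and conjugate glutathione, the cargo partner of Abcc1, had differences in both directions. Of 17 listed, 15 were measured and 0 passed the limma test (5 at an unadjusted p under 0.05, 1 higher and 4 lower, beside 8.59% and 5.91% of all genes), with a median of -0.43. Gsr, which regenerates reduced glutathione, stood at 9.32, 9.39 and 9.42 on the conditional arrays and at 8.74 and 8.23 on the controls. Its groups were apart, with a difference of 0.89 ± 0.178 (SE; limma, adjusted p = 0.130), at 0.63 against control 1 and 1.15 against control 2. Gclc, the catalytic subunit of glutathione synthesis, was at 0.43, and its modifier Gclm at -0.20 (0.35 against control 2). Gstp1, a glutathione transferase gene named after its values were seen, was at -0.80 (limma, adjusted p = 0.109). Ltc4s, which makes the leukotriene that Abcc1 exports, was at 0.06 (0.35 against control 1 and -0.24 against control 2). The list median was -0.74 against control 1 and -0.03 against control 2.

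Carriers that bring bile acids into cells or release them had differences from -1.35 to 0.40. Of 11 listed symbols 9 were measured, 0 passed the limma test (0 also at an unadjusted p under 0.05) and the median was 0.01. Slc10a2, the ileal bile acid importer, was at 0.06, and Slc51b, a subunit of the basolateral exporter, at 0.01, with groups overlapping for both. Of the 9 carriers, 3 had a mean level above the median of all genes, and whether they were expressed is not known. The ABC family proteins without membrane domains, which act in translation and not in transport, were 4 genes with differences from 0.03 to 0.35, of which 0 passed the limma test (0 also at an unadjusted p under 0.05).

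**Figure D5:**
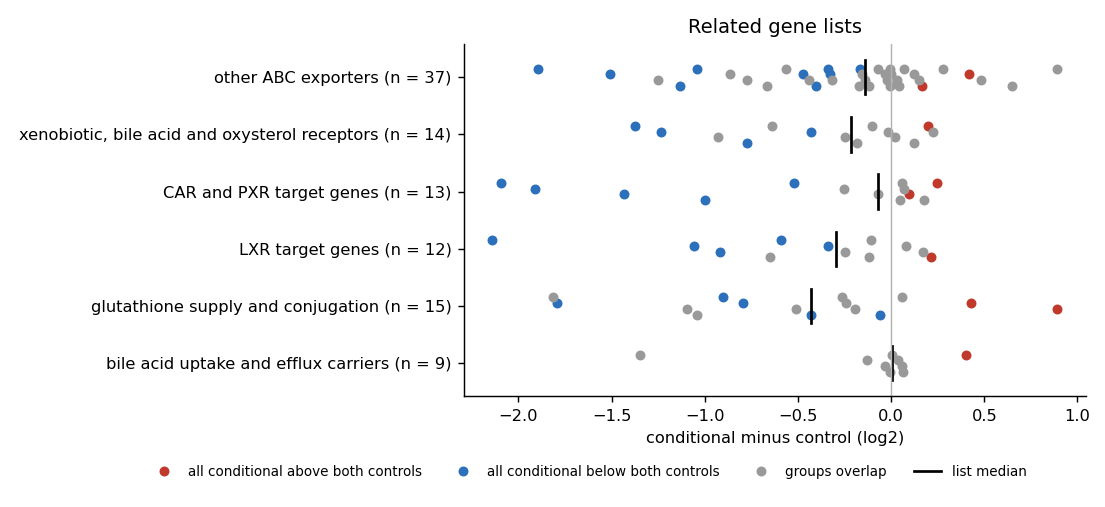
Conditional minus control difference on the log2 scale for each measured gene of 6 related lists, with black bars at the list medians; red and blue points have all conditional values above or below both controls and grey points overlap. Medians lie between -0.43 and 0.01. No list has a gene as high as Abcb1a (1.91) or Abcb1b (2.74), which ranked 89th and 26th of 19937 genes by difference.

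The genes most like each member over the 5 arrays were taken as the 3 with the smallest root mean square gap between centred log2 profiles. For Abcb1a these were Cd33, a sialic acid-binding receptor gene (gap 0.05), Arap2 (0.10) and Zfp52 (0.10), and 27 genes lay within 0.2. For Abcb1b they were Rnf157 (0.17), Klrc3 (0.22) and Mpeg1 (0.23), and 1 gene lay within 0.2, so few genes shared its size of difference and its spread. For Abcc1 they were Cemip2, Map2 and Il12b, with 320 genes within 0.2. Abcg1 was closest to Dusp10, a phosphatase of MAP kinases (gap 0.03), Dgkz, a diacylglycerol kinase (0.05), and Dedd2 (0.05), with 78 genes within 0.2. Abcg2 was closest to Plscr3, Phactr2 and Polr3gl and Abca1 to Slc16a9, Palm and Tph1, with 421 and 702 genes within 0.2. Nr1i3 spanned 0.36 over the arrays, under the span of 1 set for this comparison. Likeness over 5 arrays is a description of these arrays only.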

How the data were processed

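The deposited table holds log2 signals. Per the submitters' processing notes, the authors used RMA and oligo, with versions and build not given in the sources used here. RMA fits background, equalises the arrays' distributions and summarises probes, which compresses differences of dim genes and removes global shifts. Precision is limited by the number of arrays. Array medians over 34760 probe sets were 7.12 to 7.23. Of these, 21640 had 1 gene symbol, 1321 several and 11799 none in the platform annotation. For each of 19937 genes the single-symbol probe set of highest mean was used. Genotype labels gave the groups, and titles the replicate numbers.

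The groups were compared in limma (version 3.58.1, R 4.3.3; lmFit and eBayes, no covariate), with 2-sided p, with Benjamini-Hochberg adjustment over all genes and a threshold of 0.05. The fit, tested on simulated data for 19937 genes, recovered 22.5%, 79.9% and 94.2% of changes of 1, 2 and 4 (log2). The members and lists were chosen with earlier results of these data known. Genes named are the members, 42 genes set by name (40 measured), list genes past the threshold, the flanking genes, the 3 nearest profiles of members spanning over 1, and others where said. Alternatives were 2 other normalizations, a filter on dim genes, mean probe sets, array weights, a trend of variance with level, a block on replicate number, fits without each array, another threshold and, added later, a T cell covariate. No paralog-specific probe check was made.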

Additional observations from a re-analysis of the deposited data

How the results depend on the processing

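Abcb1a, Abcb1b and Abcc1 kept higher and Abcg2 and Abca1 lower values in conditional cells under every alternative that could be fitted; the filter on dim genes removed Abcg2 and Nr1i3. Leaving out each array in turn gave 1.83 to 1.98 for Abcb1a, 0.75 to 1.003 for Abcc1, -1.28 to -0.46 for Abcg2 and -1.26 to -0.22 for Abca1, and for Abcg1 -1.20 to 0.57, a change of sign. Median centring gave 2.001 for Abcb1a. The count of genes past the threshold (83) was 48 after another quantile normalization, 13 with array weights, 374 at an adjusted p of 0.1, 1713 with the T cell covariate and 0 to 5474 with 1 array left out. It was 0 without conditional replicate 1, 2 or 3 (limma; 2037, 1677 and 1417 genes at an unadjusted p under 0.05), 1217 when control 1 was left out and 5474 when control 2 was, and the cause was not tested. Other ABC exporters and the pathway lists together, 0 and 0 past the threshold, had 2 and 13 with the covariate, and 0 to 18 and 0 to 30 with 1 array left out. Deviations from the group means correlated at 0.40 for the arrays numbered 1 and at -0.29 for those numbered 2. The deviations of the 2 controls mirror each other, so these values cannot decide whether equal numbers pair the arrays. With the replicate block 69 genes passed and Abcb1b was at 2.61. Among 56 other named genes, 612 of 705 values kept direction and side of the threshold, 51 passed where they had not, 5 no longer passed (Krt20) and 37, in 17 genes, changed sign. Of the sign changes 16 came without 1 control, 9 with the covariate and 12 elsewhere. Median centring gave 0.0881 for Abcc2, 0.0229 for Abcc4 and 0.0420 for Ppp3r1, the other quantile normalization -0.0098 for Slc51b and array weights 0.0045 for Abcc2. The replicate block gave -0.0029 for Cyp2b10 and -0.0081 for Slc51b. The covariate gave 0.1105 for Abcc4, 0.1349 for Abcb10, -0.0538 for Tap2, -0.0740 for Cyp2b10, 0.2036 for Gclm, -0.1620 for Ltc4s, -0.0962 for Slc51b, -0.1187 for Cd3e and 0.0878 for Ppp3r1. Ranges with 1 array left out were -0.33 to 0.19 for Abcc4, -0.59 to 0.25 for Abcb10, -0.17 to 0.73 for Tap2, -1.15 to 0.0179 for Cftr, -0.74 to 0.35 for Gclm, -0.24 to 0.35 for Ltc4s, -0.0239 to 0.15 for Slc10a2, -0.13 to 0.14 for Slc51b, -0.49 to 2.28 for Cd3e, -0.21 to 2.36 for Cd4, -2.67 to 0.19 for Epcam, -0.11 to 0.97 for Pecam1, -0.25 to 0.15 for Ppp3r1, -0.16 to 0.15 for Abcc2, -0.64 to 0.33 for Abca2, -0.1164 to 0.2159 for Cyp2b10 and -0.2418 to 0.0405 for Abcg8. A value against 1 control has no spread of its own on that side, and counts without 1 control assume that the other varies as the conditional arrays do.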
